A study of Homo sapiens with 15 samples.

Results

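L1CAM, KIF21B, SLC29A4, EGFL7, OLFM2, FAM171A2 and TPRG1 are 7 genes that were close to silent in untreated HaCaT cells and far higher in cells given Ag2S NPs. They were picked by name out of 18179 genes in the deposited tables, because their values were low in untreated cells and strongly raised with the particles. That choice used the differences between treated and untreated libraries, so these differences are given below as a description, without a test. No numeric limit for the choice was stated.

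HaCaT is an established, spontaneously immortal line of human keratinocytes, the cells of the epidermis. RNA was sequenced from cells given Li-doped Ag2S NPs at 320 μg/mL, Ag2S NPs at 320 μg/mL, Li-doped Ag2S NPs at 160 μg/mL or Ag2S NPs at 160 μg/mL for 24 h, and from untreated cells, with 3 libraries in each of the 5 groups. All 15 libraries are thus of 1 cell line in culture. Whether the 3 libraries of a group were separate cultures is stated nowhere, and p-values therefore measure the spread among these libraries, which may be technical. Values are FPKM, that is, fragment numbers corrected for transcript length and library size, which can be set side by side between genes. The depth behind them is unknown, and their sum over genes ran between 582437.8 and 698557.9 per library. Replicate 15 of Li-doped Ag2S NPs at 320 μg/mL had the highest of these sums. Libraries of a group differed by a root mean square of 0.326 to 0.486 on the log2 scale over genes, with the larger distances at replicate 6 of Ag2S NPs at 160 μg/mL (0.486 and 0.448), replicate 15 (0.436 and 0.467) and replicate 12 of Li-doped Ag2S NPs at 160 μg/mL (0.421 and 0.417), and at most 0.355 in all other pairs. Calls that need one of these 3 libraries are named with their tests. In these bulk samples, fewer cells that carry a transcript and less of it per cell cannot be told apart.

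The 7 genes have different jobs. L1CAM is an adhesion molecule of the cell surface, built of immunoglobulin and fibronectin domains, that guides growing axons and also appears on many carcinoma cells. KIF21B is a motor protein of the kinesin-4 family that walks along microtubules and limits their growth, best known in neurons and lymphocytes. SLC29A4 is a transporter of the plasma membrane that carries monoamines such as serotonin. EGFL7 is a secreted protein with EGF-like repeats, known from endothelial cells, where it acts in vessel formation. OLFM2 is a secreted glycoprotein with an olfactomedin domain. FAM171A2 is a membrane protein whose function is little known. TPRG1 was named as a gene regulated by the tumor protein p63, the transcription factor that maintains basal keratinocytes.

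L1CAM reached 12.96, 13.08 and 10.79 FPKM in the 3 libraries with Li-doped Ag2S NPs at 320 μg/mL. It reached 11.7, 9.51 and 10.7 FPKM with Ag2S NPs at 320 μg/mL and 38.8, 39.3 and 40.8 FPKM with Li-doped Ag2S NPs at 160 μg/mL. With Ag2S NPs at 160 μg/mL it stood at 1.47, 1.5 and 1.46 FPKM, against 0.33, 0.24 and 0.55 FPKM in untreated cells. The 3 libraries with Li-doped Ag2S NPs at 160 μg/mL were thus above all others, those of both particles at 320 μg/mL overlapped, and every treated library was above every untreated one. The group means were 12.3 ± 1.29, 10.6 ± 1.11, 39.6 ± 1.06 and 1.48 ± 0.02 FPKM in the treated groups in the same order (SD, n = 3 each), which is 32.9, 28.5, 106 and 3.96 times the untreated mean of 0.373 ± 0.16.

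KIF21B had 1.32, 0.96 and 0.73 FPKM with Li-doped Ag2S NPs at 320 μg/mL and 0.77, 0.77 and 0.70 FPKM with Ag2S NPs at 320 μg/mL. It had 10.1, 10.6 and 8.62 FPKM with Li-doped Ag2S NPs at 160 μg/mL and 0.31, 0.24 and 0.26 FPKM with Ag2S NPs at 160 μg/mL, against 0.06, 0.05 and 0.04 FPKM in untreated cells. Only with Li-doped Ag2S NPs at 160 μg/mL did its libraries leave the range around 1 FPKM and below. The mean there was 9.78 ± 1.02 FPKM, 196 times the untreated mean, and the other treated means were 20.1, 14.9 and 5.4 times the untreated mean. Since the untreated values rest on a few hundredths of an FPKM, in tables rounded to 2 decimals, these ratios are coarse.

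SLC29A4 was likewise highest by far in 1 group. It had 2.03, 1.17 and 1.99 FPKM with Li-doped Ag2S NPs at 320 μg/mL, 1.32, 2.21 and 2.09 FPKM with Ag2S NPs at 320 μg/mL and 12.7, 13.2 and 14.8 FPKM with Li-doped Ag2S NPs at 160 μg/mL. With Ag2S NPs at 160 μg/mL it had 0.51, 0.88 and 1.35 FPKM, against 0.10, 0.11 and 0.06 FPKM in untreated cells. The group with Li-doped Ag2S NPs at 160 μg/mL again lay apart at 151 times the untreated mean, while the other 3 treated groups ran into each other at 19.2, 20.8 and 10.1 times.

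EGFL7 had 18.6, 16.5 and 26.2 FPKM with Li-doped Ag2S NPs at 320 μg/mL, 15.3, 17.9 and 17.8 FPKM with Ag2S NPs at 320 μg/mL and 35.8, 30.2 and 33.6 FPKM with Li-doped Ag2S NPs at 160 μg/mL. With Ag2S NPs at 160 μg/mL it had 9.39, 10.0 and 8.53 FPKM, against 1.06, 1.63 and 1.21 FPKM in untreated cells. The highest group was that of L1CAM, and both groups at 320 μg/mL overlapped, but the gap was smaller, with means of 15.7, 13.1, 25.5 and 7.16 times the untreated mean. The highest library with Li-doped Ag2S NPs at 320 μg/mL was replicate 15.

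OLFM2 was the most abundant of the 7 per length. It had 43.1, 40.3 and 49.7 FPKM with Li-doped Ag2S NPs at 320 μg/mL, 25.7, 30.6 and 32.5 FPKM with Ag2S NPs at 320 μg/mL and 43.6, 39.2 and 52.9 FPKM with Li-doped Ag2S NPs at 160 μg/mL. With Ag2S NPs at 160 μg/mL it had 13.9, 13.2 and 13.6 FPKM, against 2.25, 1.41 and 1.73 FPKM in untreated cells. Both groups with Li-doped particles overlapped and lay above both groups with undoped ones, at 24.7 and 25.2 times the untreated mean with Li doping and 16.5 and 7.54 times without it, the dose of 320 μg/mL first.

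FAM171A2 differed little among the treated groups. Its libraries held 5.05, 4.01 and 5.93 FPKM with Li-doped Ag2S NPs at 320 μg/mL, 6.42, 6.66 and 7.57 FPKM with Ag2S NPs at 320 μg/mL, 5.55, 4.07 and 6.70 FPKM with Li-doped Ag2S NPs at 160 μg/mL and 4.27, 3.75 and 3.86 FPKM with Ag2S NPs at 160 μg/mL. Untreated cells held 0.52, 0.38 and 0.17 FPKM. All 12 treated libraries lay between 3.75 and 7.57 FPKM, and the 4 means were 14.01, 19.3, 15.3 and 11.1 times the untreated mean.

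TPRG1 varied within groups. It had 9.20, 7.47 and 6.48 FPKM with Li-doped Ag2S NPs at 320 μg/mL, 9.76, 11.2 and 9.03 FPKM with Ag2S NPs at 320 μg/mL and 7.5, 7.05 and 3.57 FPKM with Li-doped Ag2S NPs at 160 μg/mL. With Ag2S NPs at 160 μg/mL it had 2.14, 3.72 and 2.89 FPKM, against 1.23, 0.97 and 0.11 FPKM in untreated cells. The 3 highest groups overlapped with their neighbours in the order, and so did Li-doped with undoped particles at 160 μg/mL. The means were 10.0, 12.97, 7.84 and 3.79 times the untreated mean, which has 1 library far below the other 2.

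**Figure D1:**
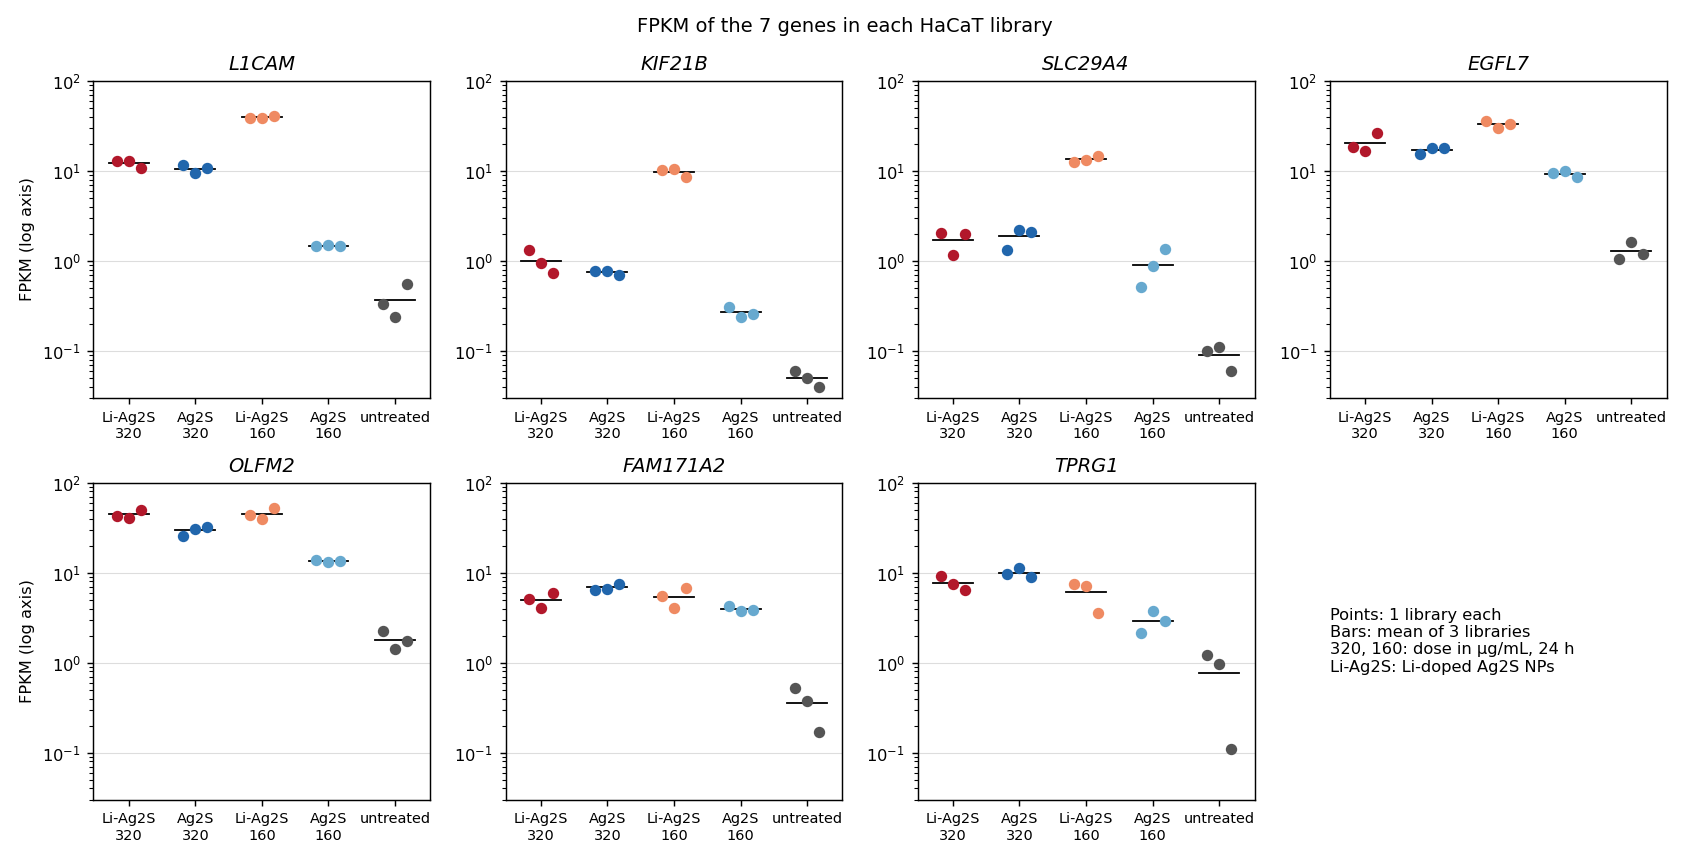
FPKM on a log axis for each of the 7 genes, with 1 point per library, a bar at the mean of the 3 libraries of a group, and the groups along the horizontal axis (dose in μg/mL). L1CAM, KIF21B and SLC29A4 stand highest with Li-doped Ag2S NPs at 160 μg/mL, at means of 39.6, 9.78 and 13.6 FPKM, while FAM171A2 lies between 3.75 and 7.57 FPKM in all treated libraries.

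Differences between the particles, and between the doses, were tested on log2(FPKM + 0.1) with the moderated test of limma over all genes with a mean of at least 1 FPKM. The treated libraries in these tests are those that also served to choose the 7 genes. L1CAM, KIF21B and SLC29A4 passed that limit at 160 μg/mL only through the group with Li-doped particles, where they are high, at means of 0.925, 0.16 and 0.502 FPKM over the other 2 groups. Over all 15 libraries KIF21B passed only through the same group (0.518 FPKM over the other 4), and at 320 μg/mL it did not pass. A gene that enters through the group under test had to differ, so the counts at 160 μg/mL, between doses of Li-doped particles and of the interaction are a description. They were also taken without any limit on low values, where all 7 genes enter whatever their level.

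At 320 μg/mL, 1 of the 6 genes tested differed between Li-doped and undoped Ag2S NPs, against 26.2% of all 11903 genes tested. OLFM2 was higher with Li-doped particles by 0.58 on the log2 scale (SE 0.16, 95% interval 0.24 to 0.93, adjusted p = 0.0200). Without replicate 15 of the Li-doped group the difference was 0.50 (adjusted p = 0.0590), without replicate 7 of the undoped group it was 0.49 (adjusted p = 0.0871) and without replicate 8 it was 0.61 (adjusted p = 0.0512), so that this call needed each of these 3 libraries. The differences that were not called were 0.20 for L1CAM (95% interval −0.28 to 0.69), 0.24 for EGFL7 (−0.18 to 0.66), −0.12 for SLC29A4 (−0.84 to 0.61), −0.47 for FAM171A2 (−1.09 to 0.16) and −0.38 for TPRG1 (−1.54 to 0.78). KIF21B, tested only when the limit on low values was dropped, gave 0.35 (−0.22 to 0.91, adjusted p = 0.409). The intervals of L1CAM and EGFL7 leave out a difference of 1 on the log2 scale, and that of TPRG1 does not.

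At 160 μg/mL, 5 of the 7 genes were higher with Li-doped than with undoped Ag2S NPs, against 21.4% of all 11987 genes tested, and without a limit the same 5 of 7 were, against 16.9% of 17740 genes. EGFL7 and OLFM2 are those of the 5 that pass the limit without the Li-doped group. KIF21B differed by 4.74 on the log2 scale (SE 0.29, adjusted p = 4.31e-07), L1CAM by 4.66 (SE 0.22, adjusted p = 6.29e-08) and SLC29A4 by 3.84 (SE 0.32, adjusted p = 3.61e-06). EGFL7 and OLFM2, the secreted proteins, differed less, by 1.82 (SE 0.15, adjusted p = 3.89e-06) and 1.72 (SE 0.16, adjusted p = 8.62e-06). FAM171A2 differed by 0.42 (95% interval −0.25 to 1.10, adjusted p = 0.276) and TPRG1 by 0.99 (−0.32 to 2.30, adjusted p = 0.192), and neither was called. Without untreated replicate 3, the lowest TPRG1 library, the same difference of TPRG1 was called (adjusted p = 0.0232).

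With undoped Ag2S NPs, 6 of the 7 genes were higher at 320 than at 160 μg/mL, against 4.84% of all 11952 genes tested. The choice of genes strongly raised in these libraries may have favoured such a difference, so this count too is a description. KIF21B entered this fit only through the group with Li-doped Ag2S NPs at 160 μg/mL. L1CAM rose by 2.76 on the log2 scale (SE 0.18, adjusted p = 2.55e-07), TPRG1 by 1.77 (SE 0.50, adjusted p = 0.0304), KIF21B by 1.20 (SE 0.27, adjusted p = 0.00912), OLFM2 by 1.11 (SE 0.15, adjusted p = 0.000209) and EGFL7 by 0.86 (SE 0.17, adjusted p = 0.00367). SLC29A4 rose by 1.02 (SE 0.32, adjusted p = 0.0461), a call that was lost in 14 of its 22 alternatives. Among these were the fits without any 1 of replicates 1 to 3 (untreated), 4 or 5 (Ag2S NPs, 160 μg/mL), 8 or 9 (Ag2S NPs, 320 μg/mL), 10 to 12 or 13 (Li-doped), with differences of 0.69 to 1.04 and adjusted p of 0.0510 to 0.161. The call of TPRG1 was lost without replicate 4 or 6 of Ag2S NPs at 160 μg/mL and without replicate 7, 8 or 9 of Ag2S NPs at 320 μg/mL, with differences of 1.57 to 1.84 and adjusted p of 0.0668 to 0.0927. Without a limit on low values 4 of the 7 were called, and SLC29A4 (adjusted p = 0.0705) and TPRG1 (adjusted p = 0.0564) were not. FAM171A2 differed by 0.78 (95% interval 0.22 to 1.34) and was not called at an adjusted p of 0.0635, but was called without untreated replicate 1 (adjusted p = 0.0429) or 3 (adjusted p = 0.0211).

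With Li-doped Ag2S NPs the order of the doses was the other way for 4 of the 7 genes, which were lower at 320 than at 160 μg/mL, against 23.3% of all genes tested (the same 4 of 7 without a limit on low values, against 17.7%). KIF21B fell by 3.19 on the log2 scale (SE 0.27, adjusted p = 2.37e-07), SLC29A4 fell by 2.94 (SE 0.32, adjusted p = 2.82e-06), L1CAM fell by 1.69 (SE 0.18, adjusted p = 3.45e-06) and EGFL7 fell by 0.72 (SE 0.17, adjusted p = 0.00273). OLFM2 differed by −0.02 (95% interval −0.34 to 0.30), FAM171A2 by −0.11 (−0.67 to 0.45) and TPRG1 by 0.41 (−0.66 to 1.47), and none of the 3 was called. These 4 calls were kept without replicate 15 at 320 μg/mL.

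The change with dose was also compared between the particles, which is a description because the same libraries served to choose the genes. The test of this difference (the change between doses with Li-doped particles minus the change with undoped ones) called 5 of the 7 genes. All 5 were below 0, against 19.5% of all genes tested (the same 5 of 7 without a limit on low values, against 15.2%). The difference was −4.45 on the log2 scale for L1CAM (SE 0.26, adjusted p = 6.68e-09), −4.39 for KIF21B (SE 0.38, adjusted p = 4.14e-07), −3.95 for SLC29A4 (SE 0.45, adjusted p = 5.92e-06), −1.58 for EGFL7 (SE 0.24, adjusted p = 8.94e-05) and −1.14 for OLFM2 (SE 0.21, adjusted p = 0.000577). FAM171A2 gave −0.89 (95% interval −1.68 to −0.10, adjusted p = 0.0688) and TPRG1 −1.36 (−2.87 to 0.14, adjusted p = 0.139). FAM171A2 was called without untreated replicate 1 (adjusted p = 0.0438) or 3 (adjusted p = 0.0217) or without replicate 11 of Li-doped Ag2S NPs at 160 μg/mL (−1.08, adjusted p = 0.0377), and TPRG1 without untreated replicate 3 (adjusted p = 0.00951). L1CAM, KIF21B and SLC29A4 had the largest of these differences, and those of EGFL7 and OLFM2 were smaller. OLFM2 did not share the fall with dose of Li-doped particles (−0.02, 95% interval −0.34 to 0.30). Its difference came from the rise with undoped ones (1.11).

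**Figure D2:**
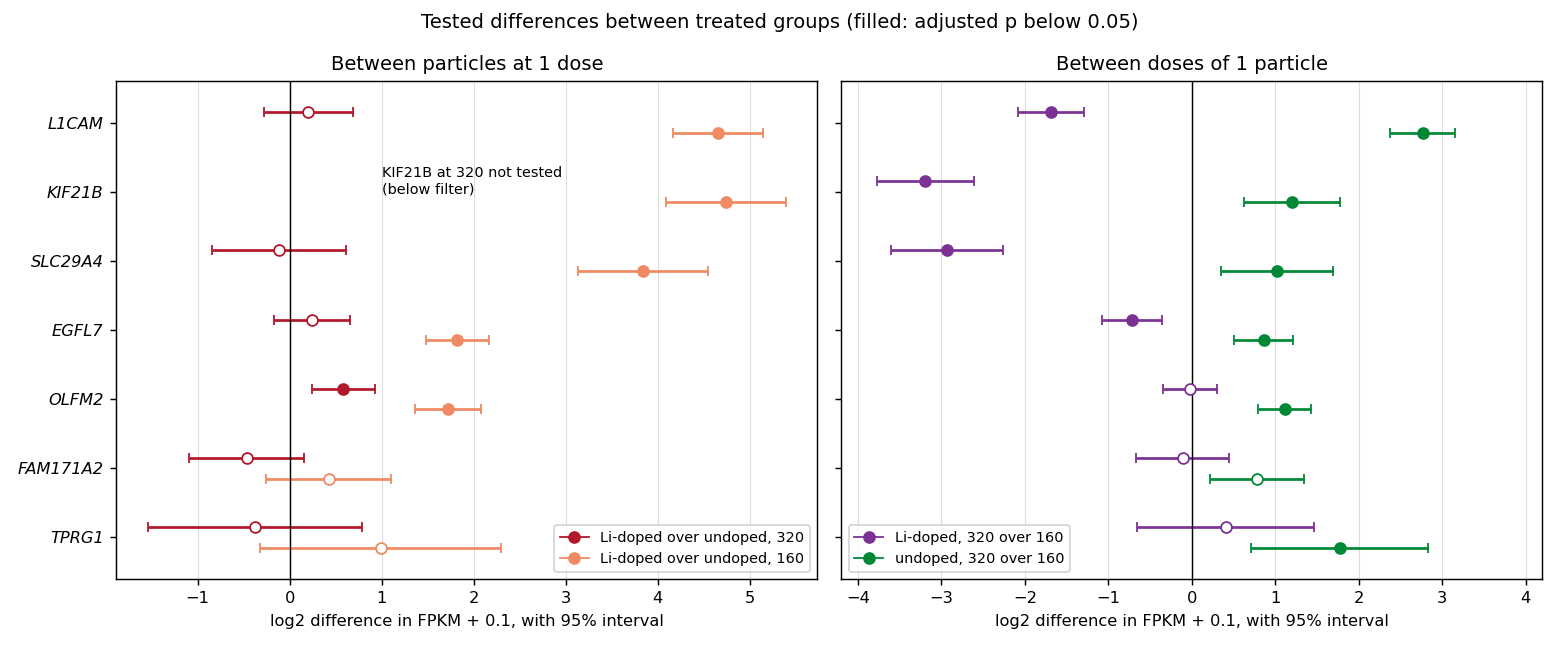
Log2 differences in FPKM + 0.1 with 95% intervals, between the particles at 320 and 160 μg/mL (left) and between 320 and 160 μg/mL for each particle (right), with filled points past an adjusted p of 0.05. L1CAM, KIF21B, SLC29A4 and EGFL7 lie below 0 for Li-doped particles (−1.69, −3.19, −2.94 and −0.72) and above 0 for undoped ones (2.76, 1.20, 1.02 and 0.86).

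Relative to untreated cells, the rise of L1CAM ranked place 3 of 11903 genes tested with Li-doped Ag2S NPs at 320 μg/mL, place 4 with Ag2S NPs at 320 μg/mL, place 2 of 11987 with Li-doped Ag2S NPs at 160 μg/mL and place 72 with Ag2S NPs at 160 μg/mL. SLC29A4 and KIF21B took places 3 and 4 with Li-doped Ag2S NPs at 160 μg/mL, where TPRG1, the lowest of the 7, was at place 116. FAM171A2 took place 7 with Ag2S NPs at 160 μg/mL, the highest of the 7 in that group. The median log2 rise of the genes tested was 3.71 (6 genes), 3.95 (6 genes), 4.59 (7 genes) and 2.34 (7 genes) in the treated groups in the same order, beside medians over all genes tested of −0.26, −0.19, −0.19 and −0.14. These values chose the 7 genes and are a description.

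Of the genes tested at both doses, 699 had an untreated mean no higher than the 1.80 FPKM of OLFM2, the highest of the 7. Of these, 11 rose in all 4 treated groups by at least as much as the smallest rise, in each group, of the 6 genes tested at both doses, and 5 of the 11 are not among the 7. KIF21B, below the limit on low values at 320 μg/mL, did not set that bound. They were TGM2, a transglutaminase that cross-links proteins, TNC, the matrix glycoprotein tenascin-C, RTN4RL2, a receptor of the Nogo family on neurons, LCE3E, a protein of the late cornified envelope, and FIBCD1, a receptor with a fibrinogen domain that binds acetylated sugars. TGM2 had 55.0, 90.7, 16.2 and 42.7 FPKM in the treated groups, Li-doped before undoped and 320 before 160 μg/mL, against 0.843 FPKM in untreated cells, so that its lowest treated group was the one where L1CAM was highest. FIBCD1 had 5.40, 6.56, 14.1 and 2.92 FPKM in the same order, against 0.463 FPKM in untreated cells.

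The transcripts of a gene share most reads, so the authors' values per transcript are estimates, whose sum came within 0.02 FPKM of the gene's value in all libraries. The gene L1CAM lies on chromosome X at 153861514 to 153886174 on the minus strand (GRCh38, GENCODE release 29). Its leading transcript, ENST00000361981, begins at base 153875944, inside the gene, and made up 57.8% to 89.6% of the L1CAM FPKM in the 12 treated libraries, with a median of 76.2%. The coding transcripts ENST00000370055 and ENST00000370060 begin 10210 and 10230 bases further upstream. Among the long coding transcripts, these upstream starts had 38.4%, 16.9% and 7.28% of the FPKM with Li-doped Ag2S NPs at 320 μg/mL, 1.80%, 3.33% and 16.8% with Ag2S NPs at 320 μg/mL and 13.1%, 8.61% and 13.1% with Li-doped Ag2S NPs at 160 μg/mL. They had 0%, 0% and 6.59% with Ag2S NPs at 160 μg/mL. The inner start carried the larger share in all 12 treated libraries, and the shares of the upstream starts spread most with Li-doped Ag2S NPs at 320 μg/mL.

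L1CAM has a pair of very short coding exons that neurons include and that other tissues mostly skip, and the sequences across both junctions show what the leading transcript lacks. The first of 15 bases is exon 3 of ENST00000370060 (chrX:153873228-153873242) and the second of 12 bases is its exon 28 (chrX:153863368-153863379). Capitals mark the short exon, and 24 bases of the exons on either side stand in lower case, 5′ to 3′.
L1CAM exon 3 included: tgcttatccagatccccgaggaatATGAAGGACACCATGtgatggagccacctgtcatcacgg
L1CAM exon 3 skipped: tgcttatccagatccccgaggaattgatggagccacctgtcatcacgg
L1CAM exon 28 included: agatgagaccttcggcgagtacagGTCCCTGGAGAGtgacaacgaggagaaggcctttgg
L1CAM exon 28 skipped: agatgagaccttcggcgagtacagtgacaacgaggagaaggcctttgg
Both skipped junctions occur as printed in ENST00000361981. Transcripts with exon 3 had 0.817% to 3.96% of the FPKM that could be assigned in the 8 treated libraries where any was listed, and transcripts with exon 28 had 1.54% to 5.72% in 8 libraries. In the other 4 treated libraries, among them all 3 with Ag2S NPs at 160 μg/mL, both forms were listed at 0. The L1CAM transcripts of these keratinocytes were thus estimated almost wholly in the form without both exons, in each treated group.

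EGFL7 was carried by the coding transcript ENST00000371698, at 76.9% to 100% of its FPKM in the treated libraries. That transcript begins at base 136665792 of chromosome 9, near the middle of the gene (136658856 to 136672678, plus strand). KIF21B was carried by ENST00000332129 (62.5% to 96.0%), FAM171A2 by ENST00000293443 (68.3% to 100%) and OLFM2 by ENST00000264833 (36.4% to 89.5%), all coding. The FPKM of SLC29A4 was divided among the coding ENST00000297195 and ENST00000406453 and the non-coding ENST00000439491, and the share of ENST00000297195 ran between 0% and 75.8% in treated libraries. ENST00000439491 held 36.5% to 55.6% with Ag2S NPs at 160 μg/mL, so that coding SLC29A4 averaged 0.457 FPKM there, beside 11.8 FPKM with Li-doped Ag2S NPs at 160 μg/mL, where ENST00000439491 held 9.33% to 20.2%. TPRG1 was different. ENST00000481307, a transcript of 541 bases that GENCODE annotates without a reading frame, made up 44.8% to 83.4% of its FPKM in treated libraries. Its coding transcripts together had 1.84 ± 0.44, 2.57 ± 0.69, 1.90 ± 0.37 and 0.593 ± 0.10 FPKM in the treated groups in the order used above, against 0.140 ± 0.08 FPKM in untreated cells (SD, n = 3 each), so that the level of coding TPRG1 was well below the gene's FPKM.

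RefSeq promoter windows (GRCh38.p14) matched L1CAM, OLFM2, EGFL7 and SLC29A4. FAM171A2, TPRG1 and KIF21B had no window in that table. Of their 8 windows, the 3 shown are those nearest to the starts of the leading transcripts of L1CAM, OLFM2 and SLC29A4. Neither EGFL7 window lies at the start of its leading transcript. Capitals mark each GC box (GGGCGG on either strand), the site that SP1 binds.
L1CAM chrX:153875895-153876194, minus strand: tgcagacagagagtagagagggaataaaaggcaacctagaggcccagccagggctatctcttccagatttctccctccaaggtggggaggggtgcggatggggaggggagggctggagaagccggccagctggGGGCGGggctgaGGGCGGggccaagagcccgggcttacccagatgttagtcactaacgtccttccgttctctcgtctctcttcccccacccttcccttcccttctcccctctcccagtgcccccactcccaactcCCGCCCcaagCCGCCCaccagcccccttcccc
OLFM2 chr19:9936466-9936765, minus strand: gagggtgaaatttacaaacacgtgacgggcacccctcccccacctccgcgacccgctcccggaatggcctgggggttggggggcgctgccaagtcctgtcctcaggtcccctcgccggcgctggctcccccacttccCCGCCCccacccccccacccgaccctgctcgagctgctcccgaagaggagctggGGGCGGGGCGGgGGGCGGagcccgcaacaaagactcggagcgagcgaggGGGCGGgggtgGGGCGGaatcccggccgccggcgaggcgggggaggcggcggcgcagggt
SLC29A4 chr7:5282693-5282992, plus strand: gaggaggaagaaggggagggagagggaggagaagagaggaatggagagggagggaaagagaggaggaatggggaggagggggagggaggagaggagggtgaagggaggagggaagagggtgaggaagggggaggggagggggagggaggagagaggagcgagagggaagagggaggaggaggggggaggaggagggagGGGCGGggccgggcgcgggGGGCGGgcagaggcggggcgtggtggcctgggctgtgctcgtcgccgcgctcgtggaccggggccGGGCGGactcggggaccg
The L1CAM window belongs to the very base where ENST00000361981 begins. It held 4 GC boxes, the OLFM2 window 6 (matches may overlap, and 2 of them do) and the SLC29A4 window 3. The windows not shown held fewer or as many, namely 2 in the other L1CAM window, 1 and 3 in the other OLFM2 windows (the first at ENST00000590841, up to 43.7% of the OLFM2 FPKM in treated libraries) and 0 and 1 in the EGFL7 windows, while 44.9% of all 34943 RefSeq windows held at least 1. The G and C content of the windows shown was 64.7% (L1CAM), 75.3% (OLFM2) and 72% (SLC29A4) and that of the others 54.7% to 80.7%, beside a median of 58.7% over all windows. The AP-1 motif TGANTCA, the E2 box CAGGTG and the motif GTCTAGAC, which SMAD proteins bind, were found in 7.72%, 20.6% and 0.203% of all windows and in none of the 8 windows of the 4 genes, on either strand. A match, or its absence, describes these letters and this window only.

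The genes next to the 7 were looked at for changes that run along the chromosome. COL5A3, a chain of type V collagen 23009 bases from OLFM2 on chromosome 19, rose in all 4 treated groups, by 2.999, 2.45, 2.65 and 0.96 on the log2 scale (Li-doped before undoped, 320 before 160 μg/mL), with means of 11.5, 7.80, 8.997 and 2.72 FPKM against 1.35 FPKM in untreated cells. TP63, 306112 bases from TPRG1 on chromosome 3, rose in all 4 groups by 0.66, 1.33, 0.60 and 0.72, with means of 163, 256, 154 and 170 FPKM against 102 FPKM in untreated cells. Both TP63 and TPRG1 had their highest mean with Ag2S NPs at 320 μg/mL.

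NOTCH1, the receptor gene 113070 bases from EGFL7 on chromosome 9, fell in all 4 groups, with log2 differences of −1.05, −1.03, −1.10 and −0.92 and 15.1, 15.2, 14.5 and 16.6 FPKM against 31.3 FPKM in untreated cells. AGPAT2, 465 bases from EGFL7 on the other side, passed the test with Li-doped Ag2S NPs at 320 μg/mL (0.33) and not in the other 3 groups. INAVA, 53655 bases from KIF21B, rose by 0.43, 0.57, 0.54 and 0.43. GRN, the progranulin gene, ends 113 bases from the end of FAM171A2 on the opposite strand at 712, 730, 590 and 706 FPKM against 705 FPKM in untreated cells. It did not pass the test in 3 groups and fell by 0.26 with Li-doped Ag2S NPs at 160 μg/mL, a call that scaling by median ratio ended. The gene TNRC18 overlaps the 3′ end of SLC29A4 on the opposite strand, and the strand of the authors' counting is not given, so reads in the shared stretch cannot be told apart. TNRC18 rose by 0.51 (SE 0.14, adjusted p = 0.00915) with Li-doped Ag2S NPs at 160 μg/mL and was not called in the other 3 groups, with 55.3 FPKM against 38.7 FPKM in untreated cells.

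LCA10, which overlaps L1CAM, had mean values of at most 0.127 FPKM. PDZD4 beside L1CAM, ITGA2B beside FAM171A2 and CACNA1S beside KIF21B stayed below 1 FPKM in every group mean and were not tested. AVPR2, on the other side of L1CAM, had at most 0.0567 FPKM at 160 μg/mL and in untreated cells and was not analysed here at 320 μg/mL. With Li-doped Ag2S NPs at 160 μg/mL, where L1CAM reached 40.8 FPKM, these neighbours of L1CAM averaged at most 0.76 FPKM. That value was of PDZD4, which had 0.153, 0.24, 0.76 and 0.0733 FPKM (Li-doped before undoped, 320 before 160 μg/mL). Its untreated mean was 0.0767 FPKM. PDZD4 was thus, at a low level and without a test, highest in the same group as L1CAM.

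Relatives and partners of the 7 genes were taken from lists of families and pathways. Of the 32 that passed the limit on low values, 9 rose and 16 fell with Li-doped Ag2S NPs at 320 μg/mL, where 17% of all genes rose and 44.6% fell. With Ag2S NPs at 320 μg/mL 10 rose and 12 fell (16.2% and 36.2% of all genes). With Li-doped Ag2S NPs at 160 μg/mL 8 rose and 13 fell (22.6% and 40.6%), and with Ag2S NPs at 160 μg/mL 6 rose and 10 fell (11.5% and 23.8%), the last of which was 6 without any 1 of untreated replicates 1, 2 and 3. After scaling by median ratio, 13 rose and 13 fell, 11 and 9, 11 and 10, and 10 and 5 in the same order.

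Close relatives moved in different directions. OLFM1, FAM171A1 and SLC29A1, described below, rose in all 4 groups, while NFASC and KIF4A rose in none. NFASC, the relative of L1CAM that anchors the axon initial segment, had 12.96, 10.6, 4.89 and 13.98 FPKM, against 16.6 FPKM in untreated cells, and fell by 1.74 with Li-doped Ag2S NPs at 160 μg/mL, the group where L1CAM was highest. It fell by 0.65 with Ag2S NPs at 320 μg/mL, and by 0.35 with Li-doped Ag2S NPs at 320 μg/mL, a call that scaling by median ratio ended. CHL1 and NRCAM, the other relatives, were below 1 FPKM in every group mean. Among 8 binding partners and sheddases of L1CAM tested, ITGB1, the integrin β1 chain, rose in all 4 groups by 0.36, 0.89, 1.22 and 0.49. ANK3, an ankyrin that tethers L1 proteins to the spectrin skeleton, fell in the first 3 groups, at −1.56, −1.06 and −2.32, and was at −0.62 without a call in the last. ADAM10, a protease that sheds L1CAM, fell by 0.67 with Li-doped Ag2S NPs at 320 μg/mL, and its falls with Li-doped (−0.35) and undoped particles (−0.23) at 160 μg/mL were not called after scaling by median ratio.

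OLFM1, the closest relative of OLFM2 in the tables, rose in all 4 groups by 2.68, 2.35, 3.77 and 1.22 on the log2 scale, with 4.21, 3.37, 9.06 and 1.48 FPKM against 0.62 FPKM in untreated cells. OLFM4, a secreted olfactomedin of epithelia, fell in all 4, with differences of −7.07, −6.77, −7.64 and −4.78 and 0.05, 0.08, 0 and 0.66 FPKM against 19.9 FPKM in untreated cells. Within that family, members thus moved in opposite directions. FAM171A1, the relative of FAM171A2, rose by 1.33, 1.68, 2.13 and 1.26, and FAM171B was below 1 FPKM in every group mean. EGFL8, a relative of EGFL7, differed by −0.69, −0.75, −0.87 and −1.19, with no call for Li-doped Ag2S NPs at 160 μg/mL. TPRG1L, the relative of TPRG1, differed by 0.15, 0.003, −0.05 and 0.10 and was called only with Li-doped Ag2S NPs at 320 μg/mL.

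Among the transporters, SLC29A1, the main nucleoside transporter of the plasma membrane, rose in all 4 groups by 1.57, 1.49, 2.19 and 0.94, with 29.9, 28.2, 45.9 and 19.3 FPKM against 10.1 FPKM in untreated cells. SLC29A3, the nucleoside transporter of lysosomes, fell in all 4, at −1.17, −1.56, −1.63 and −1.09. SLC29A2 differed by −0.50, −0.63, 0.11 and −0.34 and was called at 320 μg/mL only, with the Li-doped call lost after scaling by median ratio. None of the 3 tested kinesin-4 relatives of KIF21B rose. KIF4A, a chromosome-bound motor of dividing cells, fell in all 4, at −1.67, −1.11, −2.01 and −0.47, the last of which was not called after scaling by median ratio. KIF21A, the nearest relative, fell by 0.78 with Li-doped Ag2S NPs at 320 μg/mL and was not called in the other 3 groups.

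**Figure D3:**
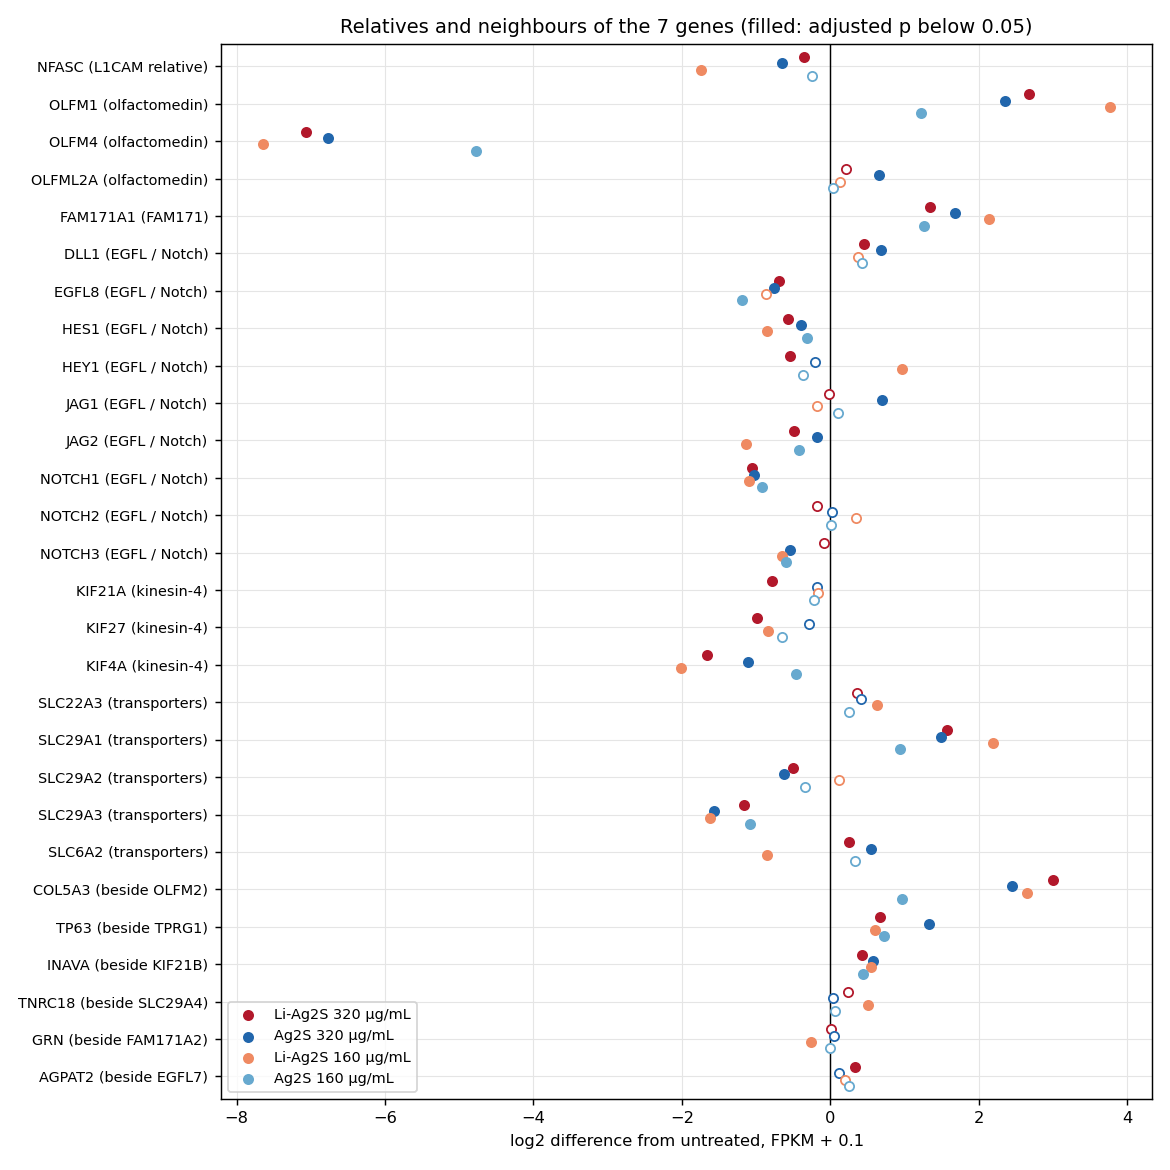
Log2 difference from untreated cells in FPKM + 0.1 for relatives and chromosomal neighbours of the 7 genes, with 1 point per treated group and filled points past an adjusted p of 0.05. OLFM1, FAM171A1, SLC29A1 and COL5A3 lie right of 0 in all 4 groups, NOTCH1, SLC29A3 and OLFM4 lie left of 0, and the relatives of KIF21B and L1CAM do not follow them.

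REST is a repressor that keeps neuronal genes silent in other tissues, and L1CAM is among the genes known to carry its binding site. In a list of 30 other neuronal genes that REST represses, 28 were in the tables and 9 (at 320 μg/mL) or 10 (at 160 μg/mL) passed the limit on low values. Of these, 5, 5, 6 and 5 rose and none fell, where 17%, 16.2%, 22.6% and 11.5% of all genes rose, and after scaling by median ratio 6, 7, 8 and 5 rose. They had a median of 0.61, 0.63, 0.80 and 0.59 on the log2 scale beside the medians over all genes given above. The limit was a mean over treated and untreated libraries, so a near-silent gene that rose could enter and one that stayed silent could not. The list was also chosen with earlier results of these data known. These counts and medians are therefore a description. VGF passed the limit at 160 μg/mL only, and is counted in the 6 rises with Li-doped particles at that dose and in the median of 0.80. It rose by 2.99 with Li-doped particles there and was not called with undoped ones (0.92). Its high level in the Li-doped group counted towards the limit, so its rise there is a description. SYP, the synaptic vesicle protein synaptophysin, had 1.60, 1.18, 10.7 and 0.92 FPKM against 1.26 FPKM in untreated cells and rose by 2.99 with Li-doped Ag2S NPs at 160 μg/mL, the group where KIF21B and L1CAM were highest. It was higher there than with undoped particles at the same dose by 3.40 (SE 0.19). SYP was named after its values were seen, so its rise and this difference are a description. RUNDC3A rose by 1.75, 2.73, 2.37 and 1.51, STMN3 by 0.92, 0.76, 1.16 and 0.32, MAPK8IP1, a scaffold of the JNK pathway, by 1.20, 0.63, 0.96 and 0.99 and TUBB3, a neuronal β-tubulin, by 1.37, 1.27, 0.65 and 1.14. Most of the list stayed near 0, among them SCG3, ELAVL3, NEFH and BDNF at group means of at most 0.03 FPKM. REST itself fell with Li-doped Ag2S NPs at 320 (−0.89) and 160 μg/mL (−0.62), the last of which was lost after scaling by median ratio, and was not called with undoped particles (−0.34 at 320 and −0.39 at 160 μg/mL). The part of REST in the levels of the 7 genes was not tested.

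The genes whose levels ran most alike were sought by the root mean square difference over the 15 libraries in log2(FPKM + 0.1), each gene centred on its own mean. This is a description, and the libraries share their groups. For L1CAM the nearest was GJA3, a gap junction protein, at 0.51, followed by ODC1, the first enzyme of polyamine synthesis, at 0.65. GJA3 had 2.48, 1.87, 6.51 and 0.44 FPKM in the treated groups, against 0.0733 FPKM in untreated cells. ODC1 was also the nearest to KIF21B (0.45), with 91.5, 60.7, 373 and 25.6 FPKM against 7.64 FPKM in untreated cells, followed by AREG, the EGF receptor ligand amphiregulin (0.46), and ASNS, the asparagine synthetase (0.49). For SLC29A4 they were IL1A (0.46), AREG (0.46) and CALB2 (0.47). EGFL7 was nearest to FIBCD1 (0.27) and SERPINE2 (0.28), OLFM2 to WNT3A (0.26) and SERPINE2 (0.34), FAM171A2 to TUBA1A (0.38) and MMP10 (0.41) and TPRG1 to ADGRB2 (0.64). Within the 7, OLFM2 and EGFL7 were the closest pair at 0.37, and KIF21B and SLC29A4 came next at 0.56.

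Markers of the cell types in which these genes are best known were summed per library. The 10 keratinocyte markers summed to 24588 to 29101.6, 14380.7 to 16064.1, 10970.6 to 13179.1 and 13838 to 15125.6 FPKM in the treated groups (Li-doped before undoped, 320 before 160 μg/mL). In untreated cells they summed to 9455.28 to 9809.99 FPKM, below every treated library. These defining genes of the labelled cell type were thus present throughout. Of the 9 endothelial markers in the tables, all had group means below 1 FPKM in treated cells, their sum was 0.46 to 1.76 FPKM in treated libraries, against 3.54 to 4.24 FPKM in untreated ones, and PECAM1 was listed at 0 in each treated group, while EGFL7 reached 35.8 FPKM. The 4 Schwann cell markers summed to at most 0.37 FPKM in any library. Of 10 neuronal markers listed, 5 were in the tables. They summed to 45.0 to 49.2, 38.6 to 39.6, 46.2 to 54.4 and 21.7 to 23.3 FPKM in the treated groups, against 7.78 to 9.19 FPKM in untreated cells. Of these markers, NEFL and MAP2 made up most of the sum, at 37.3, 24.6, 31.7 and 12.7 FPKM for NEFL and 8.50, 13.46, 16.2 and 9.28 FPKM for MAP2 against 4.63 and 3.65 FPKM in untreated cells, while NEFM and RBFOX3 had group means of at most 0.25 FPKM. SYT1 had a mean of at least 1 FPKM only with Li-doped Ag2S NPs at 160 μg/mL, the group where L1CAM, KIF21B and SLC29A4 were highest. The 3 macrophage markers in the tables summed to 9.71 to 11.98, 18.3 to 21.9, 26.1 to 29.6 and 13.3 to 15.6 FPKM in the treated groups, against 10.8 to 11.99 FPKM in untreated cells, nearly all of it CD68, a lysosomal protein, with CSF1R at group means of at most 0.247 FPKM. This sum was thus highest in the group where L1CAM, KIF21B and SLC29A4 were. The 5 fibroblast markers summed to 2.11 to 7.84 FPKM in treated libraries, against 12.99 to 16.18 FPKM in untreated ones, and the 4 melanocyte markers to 1.93 to 3.34 FPKM, against 1.74 to 1.96 FPKM. The part of these markers in the levels of the 7 genes was not tested.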

How the data were processed

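The authors made TruSeq RNA libraries of HaCaT cells, and their notes name TopHat, Cufflinks 2.1.1 and Cuffdiff. The methods state corrections for reads of several origins and for fragment bias in Cuffdiff. The deposited FPKM per gene and per transcript are rounded to 2 decimals. The sources do not give the genome build or the strand of counting. The authors' group values, fold changes and p-values in the tables were not used. The tables give no read numbers and none were derived, so the depth is unknown.

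Tables of 9 libraries (160 or 320 μg/mL, each with the same untreated libraries) were joined by identifier. Genes with a mean of at least 1 FPKM were tested on log2(FPKM + 0.1), which understates changes of low genes, with limma 3.58.1 in R 4.3.3 (eBayes with a trend, 2-sided, Benjamini-Hochberg adjustment over all genes tested, threshold 0.05). Fits held the 9 libraries of a dose, or all 15 for doses and their interaction with doping. The code was tested on simulated data. All 18179 identifiers were found in GENCODE release 29 (GRCh38), the source of coordinates.

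The 7 members and all lists were chosen with earlier results of these data known. Genes named were the 7, up to 6 per list of relatives or REST targets that passed a test with the largest differences at 320 μg/mL, direct family members, the nearest coding neighbours and overlapping genes, up to 3 genes with the most similar profile, and up to 8 equally raised near-silent genes. SYP and VGF were named after their values were seen. Alternatives were a pseudocount of 1 or 0.01, no limit on low values, a mean of at least 5 FPKM, scaling by median ratio, the compared groups alone, all 15 libraries, robust moderation, weights per library, and leaving out each library. List genes without a row, such as OLFM3, SNAP25 and KDR, were not analysed here. A gene withheld from the text is not reported here.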

Additional observations from a re-analysis of the deposited data

Results flagged for a closer look

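For 5 genes a difference between the particles in the change with dose was called (limma, over all 15 libraries). The change between 320 and 160 μg/mL with Li-doped Ag2S NPs minus that with undoped Ag2S NPs was −4.45 for L1CAM, −4.39 for KIF21B, −3.95 for SLC29A4, −1.58 for EGFL7 and −1.14 for OLFM2 on the log2 scale. The treated libraries behind these tests also served to choose the genes. KIF21B passed the limit on low values only through the group with Li-doped Ag2S NPs at 160 μg/mL (0.518 FPKM over the other groups). These calls are therefore a description, and the same 5 genes were called without that limit. Groups of 3 libraries were not examined for single stray values.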

How the results depend on the processing

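With a mean of at least 5 FPKM, 3 genes instead of 5 were called between the particles at 160 μg/mL, 2 instead of 4 between doses of Li-doped Ag2S NPs, 3 instead of 5 in the interaction, and 3 relatives instead of 8 rose with Li-doped Ag2S NPs at 160 μg/mL, since fewer genes entered. At that limit the median rise with Li-doped Ag2S NPs at 320 μg/mL was 4.22. With a pseudocount of 1 the medians of the members against untreated cells were 2.78 (Li-doped, 320 μg/mL), 2.83 (undoped, 320), 3.74 (Li-doped, 160) and 1.19 (undoped, 160). With 0.01 they were 4.04 (Li-doped, 320), 4.24 (undoped, 320) and 2.85 (undoped, 160), and with the compared groups alone 2.82 (undoped, 160). Scaling by median ratio brought the median of all genes against untreated cells to −0.00086 (Li-doped, 320 μg/mL), −0.0052 (undoped, 320), −0.0087 (Li-doped, 160) and 0.0088 (undoped, 160), and those of the members to 3.94, 4.11, 4.77 and 2.43 in the same order. It gave 10 relatives that rose instead of 6, and 5 that fell instead of 10, with Ag2S NPs at 160 μg/mL. Over all genes it turned 2018 higher and 5313 lower with Li-doped Ag2S NPs at 320 μg/mL into 3366 and 3092, 1923 and 4309 with Ag2S NPs at 320 μg/mL into 2871 and 2553, 2715 and 4869 with Li-doped Ag2S NPs at 160 μg/mL into 3654 and 3617, 1373 and 2847 with Ag2S NPs at 160 μg/mL into 2063 and 1534, 579 and 918 for Ag2S NPs at 320 against 160 μg/mL into 785 and 621, and for Li-doped against undoped particles at 320 μg/mL 1203 and 1921 into 1440 and 1437.

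Leaving out each library in turn, the number of genes called between the particles at 320 μg/mL was 0 to 1, the median rise was 3.52 to 3.95 (Li-doped, 320 μg/mL) and 3.63 to 4.21 (undoped, 320), and 6 to 10 relatives fell with Ag2S NPs at 160 μg/mL. No value of the 7 genes changed its sign with a call on either side. Among relatives and neighbours, scaling by median ratio turned JAG1 (0.24 instead of −0.02) and HDAC1 (0.17 instead of −0.09) with Li-doped Ag2S NPs at 320 μg/mL and HDAC1 (0.15 instead of −0.04) at 160 μg/mL into rises, and ended the fall of WIPI2 (0.03 instead of −0.23) at 320 μg/mL. No paired analysis was possible because the 15 libraries carry 15 different replicate numbers. Of single calls, SLC29A4 between doses of Ag2S NPs was lost in 14 alternatives, TPRG1 there in 7 and OLFM2 at 320 μg/mL in 3. FAM171A2 gained a call in 5 alternatives between those doses and in 6 in the interaction, and TPRG1 gained one in 3 at 160 μg/mL and in 3 in the interaction. The cause was not tested. The depth is unknown, so that values of a few hundredths of an FPKM in untreated cells limit the ratios.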
